A study of Mus musculus with 12 samples.

Results

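Necap1, Foxj2, Apobec1, Rimklb, Phc1, M6pr and Klrg1 lie on mouse chromosome 6 around Slc2a3, the gene of the glucose transporter GLUT3 that was deleted in these cells. These 7 genes, out of 45703 in each deposited table, were taken by their symbols as neighbours of Slc2a3 and are described in the order of their start coordinates. Earlier results of the same libraries were known when they were chosen, so their differences between the genotypes are given below as a description, with no p-value.

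RNA was measured in 12 libraries of CD4 T cells in 4 groups of 3 libraries each. The groups were Th17 cells of genotype Slc2a3-fl/fl Cd4-cre (Th17 KO), wild-type Th17 cells (Th17 WT), Th1 cells of genotype Slc2a3-fl/fl Cd4-cre (Th1 KO) and wild-type Th1 cells (Th1 WT), all on the C57BL/6 background. The cells were naive T cells kept in culture for 3 days with antibodies to CD3 and CD28 and the cytokines of either lineage. In the KO, Cre recombinase is driven by the Cd4 promoter, which is active in T cells from the thymus on, so Cre acts in CD8 T cells as well as CD4 T cells and not in cells that never used this promoter. The labels do not say whether the wild-type cells carried Cre or floxed alleles, nor which stretch of Slc2a3 is removed.

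The neighbours have unrelated known roles. NECAP1 and its paralogue NECAP2 are proteins of clathrin-coated vesicles: they bind the adaptor AP-2, which gathers cargo and clathrin at the plasma membrane during endocytosis. M6PR, the cation-dependent mannose 6-phosphate receptor, carries newly made lysosomal hydrolases from the Golgi to endosomes, and KLRG1 is an inhibitory receptor for cadherins on effector T cells and NK cells. PHC1 is a polyhomeotic subunit of Polycomb repressive complex 1, FOXJ2 is a forkhead transcription factor, APOBEC1 is a cytidine deaminase that edits apolipoprotein B mRNA, and RIMKLB is a ligase that joins glutamate to N-acetylaspartate or citrate.

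In GRCm38.p6 coordinates of chromosome 6, Klrg1 (minus strand) spans 122270596 to 122282833, M6pr (plus strand) spans 122308720 to 122317680, and Phc1 (minus strand) spans 122317731 to 122340227. The ends of M6pr and Phc1 have 50 bases between them. Rimklb (minus strand) spans 122447296 to 122487062 and Apobec1 (minus strand) spans 122577792 to 122603024. Slc2a3 (minus strand) spans 122727809 to 122802363. Beyond it lie Foxj2 (plus strand) at 122820184 to 122845366 and Necap1 (plus strand) at 122874557 to 122888943. Measured from the Slc2a3 span, Foxj2 was the nearest neighbour at 17.8 kb and Necap1 followed at 72.2 kb, with 3 annotated genes (Foxj2, Mir7231 and C3ar1) in between. On the other side the distances were 125 kb to Apobec1, 241 kb to Rimklb, 388 kb to Phc1, 410 kb to M6pr and 445 kb to Klrg1. Foxj2 and Slc2a3 are read away from each other, and Necap1 is read in the same direction as Foxj2.

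The sequence before the Necap1 start is shown because Necap1 was the neighbour with the widest difference between the genotypes in TPM and on log2(TPM + 1), although Klrg1, at far lower levels, had a ratio of means of 10.5 in Th17 cells. It is the plus strand of chr6:122874307-122874473, 5′ to 3′, from the RefSeq promoter table of GRCm38.p6, and it ends at the last base before the GENCODE start of the gene, which lies 83 bases ahead of the RefSeq start.
Necap1: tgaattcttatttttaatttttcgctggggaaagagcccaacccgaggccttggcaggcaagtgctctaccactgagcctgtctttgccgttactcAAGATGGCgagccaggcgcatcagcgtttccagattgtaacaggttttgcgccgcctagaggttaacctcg
Capitals mark AAGATGGC, the core of the YY1 motif, which starts 154 bases before the RefSeq start on the same strand as the gene. The same stretch of 1.11% of 32851 promoters held these letters on either strand. The other 8 of 9 motifs searched on both strands had no match in these 167 bases, while past the GENCODE start GGGCGG matched on the other strand at 33 and at 16 bases before the RefSeq start. The 8 were the NRF1 motif, CCGGAAGT (ETS), GGGCGG (SP/KLF), CCAAT (NFY), TGACGTCA (cyclic AMP response), CACGTG (E-box), TATAAA (the TATA box) and ACGTGC (hypoxia response), of which the E-box and hypoxia letters can overlap. Shares of the promoters that held them over this stretch ran between 0.469% (cyclic AMP response) and 22.5% (NFY). The stretch had a G + C content of 51.5% and 9 CpG dinucleotides, against medians of 50.9% and 3 over the same stretch of all promoters.

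Recovered reads ranged between 16596283 and 28496606 per library. The T cell markers Cd3e, Cd3g, Cd4 and Trac summed to 2744 to 3562 TPM (transcripts scaled to gene length and to a fixed total per library) in Th17 KO and 2351 to 3134 TPM in Th17 WT, and to 3729 to 3950 TPM in Th1 KO and 2445 to 2694 TPM in Th1 WT. All 4 of 4 were called higher in Th1 KO by limma (1 to 3 with single libraries left out, 0 with all 12 libraries fitted together), beside 17.6% of all tested genes. Tbx21, the Th1 regulator, stood at 19.2, 81.2 and 10.3 TPM in Th17 KO replicates 1, 2 and 3, and at 2.38 to 4.66 TPM in Th17 WT. In Th1 KO it stood at 206 to 255 TPM, against 95.2 to 131 TPM in Th1 WT. It was thus below every Th1 library in every Th17 library, and higher in KO without overlap in both lineages. Th17 KO replicate 2 stood apart: over all genes it differed from its fellow replicates by a median of 0.62 on the log2 scale, while this value was 0.17 to 0.34 in the remaining libraries.

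Slc2a3 itself had 5.14, 18.7 and 3.30 TPM in Th17 KO replicates 1, 2 and 3, against 379, 109 and 44.6 TPM in Th17 WT. In Th1 KO it had 6.79, 4.49 and 7.97 TPM, against 398, 95.6 and 64.7 TPM in Th1 WT. Every KO library was below every WT library, and reads on Slc2a3 remained in every KO library. In bulk RNA, fewer cells that express a gene and less RNA of it per cell cannot be told apart.

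Klrg1 was low everywhere and higher in KO. It had 2.10, 2.13 and 5.16 TPM in Th17 KO, against 0.548, 0 and 0.346 TPM in Th17 WT. In Th1 KO it had 4.94, 5.24 and 2.72 TPM, against 0.686, 1.14 and 0.880 TPM in Th1 WT. The genotypes did not overlap in either lineage. The log2 fold change on log2(TPM + 1), which understates the change of low genes, was 1.62 ± 0.33 (SE) in Th17 and 1.45 ± 0.23 in Th1 cells. No Th17 WT library reached 1 TPM, so in Th17 cells Klrg1 entered the test only through the KO libraries.

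M6pr was the most abundant of the 7 genes in every group. It had 172, 248 and 151 TPM in Th17 KO, against 150.0, 184 and 161 TPM in Th17 WT, and these groups overlapped. The Th17 log2 fold change was 0.18 ± 0.23, and -0.03 ± 0.18 without Th17 KO replicate 2. Th1 KO libraries had 163, 175 and 187 TPM, against 126, 122 and 128 TPM in Th1 WT. Here the genotypes did not overlap, with a log2 fold change of 0.48 ± 0.13.

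Phc1, whose 3' end faces that of M6pr, had 2.34, 9.36 and 2.99 TPM in Th17 KO, against 1.81, 3.01 and 1.76 TPM in Th17 WT. The high value is that of the library that stood apart, and the log2 fold change of 0.72 ± 0.45 was 0.22 ± 0.24 without it. Th1 KO libraries had 1.69, 2.06 and 1.65 TPM, against 1.76, 1.88 and 1.74 TPM in Th1 WT. The Th1 groups overlapped and the log2 fold change was 0.00 ± 0.15, with a 95% interval of -0.35 to 0.35.

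Rimklb and Apobec1, the next genes towards Slc2a3, were too low to be tested. Rimklb drew 3, 5, 2 and 5 reads over the 3 libraries of Th17 KO, Th17 WT, Th1 KO and Th1 WT, and no library had more than 3 reads over its 18954 bases of exon, so no fold is given. Apobec1 had 0.860, 0.560 and 0.201 TPM in Th17 KO, against 0.381, 0.384 and 0.623 TPM in Th17 WT. In Th1 KO it had 0.683, 1.15 and 0.578 TPM, against 0.0471, 0.255 and 0.453 TPM in Th1 WT. The genotypes overlapped for Apobec1 in Th17 cells and did not in Th1 cells. These levels rest on 2 to 51 reads per library.

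Foxj2, the gene next to Slc2a3 on the other side, had 1.86, 10.98 and 1.62 TPM in Th17 KO, against 1.72, 2.14 and 1.10 TPM in Th17 WT. Again the high value is that of Th17 KO replicate 2, and the log2 fold change of 0.78 ± 0.58 was 0.07 ± 0.23 without it. Th1 KO libraries had 1.77, 1.43 and 2.16 TPM, against 1.45, 0.865 and 1.238 TPM in Th1 WT. These groups overlapped, and the log2 fold change was 0.35 ± 0.18 with a 95% interval of -0.06 to 0.76.

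Necap1, beyond Foxj2 and the nearly silent C3ar1, had 101.4, 124 and 79.6 TPM in Th17 KO, against 11.2, 12.8 and 8.87 TPM in Th17 WT. In Th1 KO it had 107, 97.3 and 126 TPM, against 11.4, 7.93 and 8.53 TPM in Th1 WT. The 6 KO libraries lay between 79.6 and 126 TPM and the 6 WT libraries between 7.93 and 12.8 TPM. The ratio of the means was 9.26 in Th17 cells (101.7 ± 22.3 TPM in KO, 10.98 ± 2.00 TPM in WT, SD, n = 3 each) and 11.9 in Th1 cells (110.3 ± 14.6 TPM in KO, 9.29 ± 1.87 TPM in WT). Here and below, ± on TPM is the SD of 3 libraries and ± on log2 values the SE. The log2 fold change was 3.09 ± 0.25 in Th17 cells, the 55th highest of 13823 tested genes, and 3.44 ± 0.18 in Th1 cells, the 23rd highest of 13487. By level, Th1 KO came first, then Th17 KO, Th17 WT and Th1 WT. Th1 KO and Th17 KO overlapped, as did Th17 WT and Th1 WT.

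**Figure D1:**
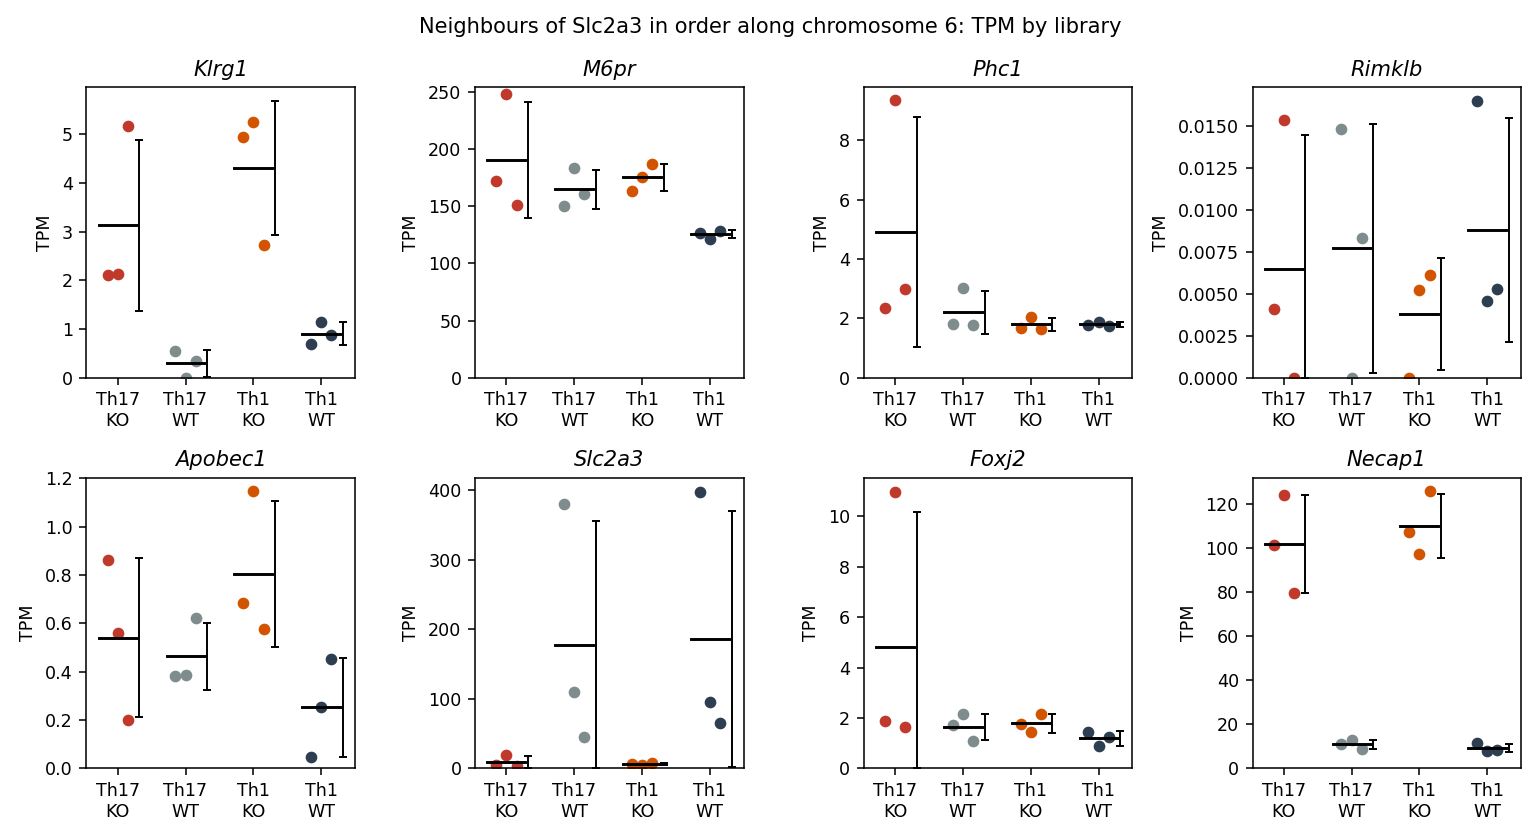
TPM of the 7 neighbours and of Slc2a3, in order along chromosome 6, in each library of Th17 KO, Th17 WT, Th1 KO and Th1 WT cells (points are replicates 1, 2 and 3 from left to right; the horizontal line is the mean of 3 libraries, the vertical bar ± SD, with its lower end drawn no lower than 0; each panel has its own scale). Necap1 lay between 79.6 and 126 TPM in KO and between 7.93 and 12.8 TPM in WT libraries, while the high Phc1 and Foxj2 points of Th17 KO are both replicate 2.

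Of the 7 genes, 5 reached 1 TPM in 3 or more libraries of a lineage, as the test required, and Rimklb and Apobec1 did not. In Th17 cells, 2 of these 5 (Klrg1 and Necap1) passed limma's test at an adjusted p of 0.05, beside 7.3% of all tested genes. In Th1 cells, 3 of 5 (Klrg1, M6pr and Necap1) passed it, beside 31.3% of all tested genes. Both counts rest on the genotype contrast that was known when the genes were chosen, and in Th17 cells Klrg1 entered only through KO. Nothing is read from either count, nor from which of these genes passed in a given fit, which is given only to show how it varied. For each lineage 14 fits were made. With single libraries left out, the Necap1 log2 fold change lay between 2.94 and 3.25 in Th17 cells and between 3.34 and 3.58 in Th1 cells. M6pr in Th1 cells no longer passed without any single KO library, without WT replicate 2, by limma-voom or with all 12 libraries fitted together. Klrg1 in Th17 cells no longer passed without any single WT library, with a pseudocount of 5 or with no filter on low values, and without any single KO library it was not tested. Its Th17 log2 fold change ran between 0.60 with a pseudocount of 5 and 3.82 by limma-voom. In Th17 cells the genotypes did not overlap for 2 of the 5 tested genes (Klrg1 and Necap1). In Th1 cells they did not overlap for 3 of 5 (Klrg1, M6pr and Necap1). Each was higher in KO, as were 18.5% and 26.3% of all tested genes, in the same order, without overlap. Apobec1, which was not tested, did not overlap in Th1 cells either, on 2 to 51 reads per library.

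The levels of Necap1 and Slc2a3 stood in no fixed ratio. Among the WT libraries Slc2a3 ranged between 44.6 and 398 TPM, a span of 8.92-fold, while Necap1 spanned 1.62-fold. Among the KO libraries Slc2a3 spanned 5.67-fold and Necap1 1.58-fold. In order of their Slc2a3 level, the 6 KO libraries had 79.6, 97.3, 101.4, 107, 126 and 124 TPM of Necap1, so the libraries lowest in Slc2a3 were also lowest in Necap1. In the same order, the 6 WT libraries had 8.87, 8.53, 7.93, 12.8, 11.2 and 11.4 TPM of Necap1. Between the genotypes Necap1 was high where Slc2a3 was low, while within KO the libraries with more Slc2a3 had more Necap1 but for the last pair, and within WT the 3 libraries highest in Slc2a3 were also the 3 highest in Necap1. No correlation is given over all 12 libraries, since they fall into 2 clusters by genotype.

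**Figure D2:**
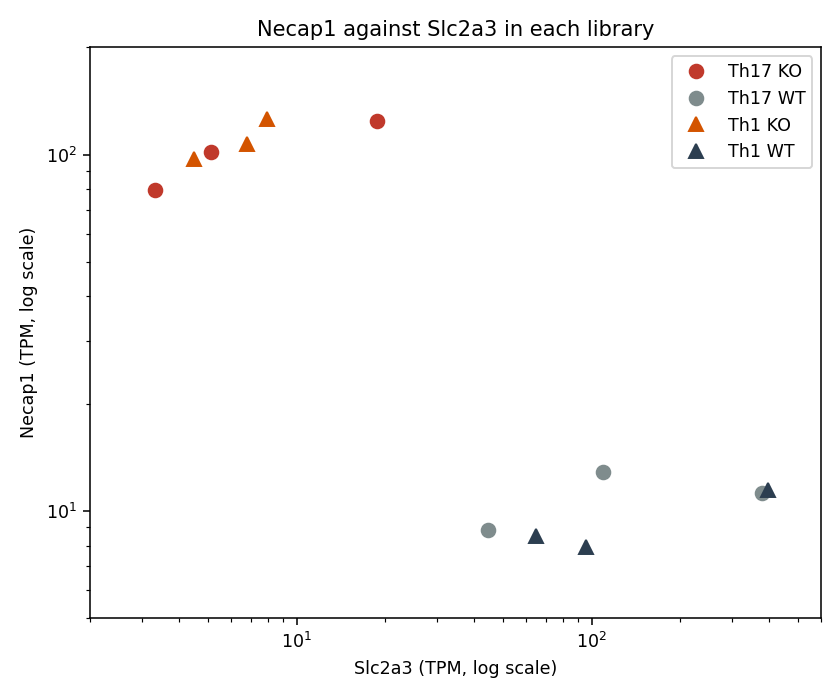
Necap1 against Slc2a3 in each of the 12 libraries, both in TPM on log scales, with circles for Th17 and triangles for Th1 cells. The 6 KO libraries sit at 79.6 to 126 TPM of Necap1 and 3.30 to 18.7 TPM of Slc2a3, and the 6 WT libraries at 7.93 to 12.8 TPM of Necap1 and 44.6 to 398 TPM of Slc2a3.

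Whether the neighbours shifted as a block was read from all genes within 1 Mb of the Slc2a3 span, Slc2a3 itself left out, a list set by position and not by level. Of 58 such genes, 34 had no read in any library and 12 were tested in Th17 cells and 11 in Th1 cells. Of the 12 genes tested in Th17 cells, 3 (Klrg1, Clec4n and Gm6637) had no WT library at 1 TPM and entered only through KO, so no share or median of the tested genes is given for Th17 cells. In Th1 cells 3 of 6 genes other than the 7 neighbours passed the test (50%), 1 higher and 2 lower in KO. The median log2 fold change of the 11 genes tested in Th1 cells was 0.00, and -0.08 without Necap1, against 0.03 over all tested genes. The 6 genes other than the neighbours are annotated as pseudogenes, so this median rests in large part on uncertain values. The 5 protein-coding genes tested in Th1 cells are all neighbours. Of these, 3 passed, all higher in KO, the count above from which nothing is read. Within 5 Mb, 24 of 82 genes tested in Th1 cells (29.3%) passed, beside 31.3% of all tested genes.

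Clec4n, which encodes dectin-2, a receptor of myeloid cells for fungal sugars, lies 427 kb beyond Slc2a3. It had 4.24, 5.26 and 4.28 TPM in Th17 KO, against 0.150, 0.933 and 0.569 TPM in Th17 WT, with no overlap and a log2 fold change of 1.88 ± 0.26. Since it entered the test only through the KO libraries, no p-value is given. In Th1 cells it had at most 0.639 TPM in KO and 0.139 TPM in WT. Its neighbours Clec4d and Clec4e stayed at or below 1.28 TPM in every library and were not tested.

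The other tested genes nearby are annotated as pseudogenes, whose reads can come from near-identical copies elsewhere, so their values are uncertain. Gm10420, 30.9 kb from Slc2a3, had 6.39 ± 1.58 TPM in Th17 KO and 14.4 ± 2.62 TPM in Th17 WT (log2 fold change -1.07 ± 0.29, limma adjusted p = 0.068). It passed the test without Th17 KO replicate 2 (adjusted p = 0.0323), and over 14 fits its adjusted p ran between 0.0058 and 0.223. In Th1 cells it fell to 5.47 ± 0.588 TPM in KO, against 12.99 ± 1.53 TPM in WT (SD, n = 3 each; log2 fold change -1.11 ± 0.16, limma adjusted p = 0.00136). Next to it, Gm10224 stood at 75.1 ± 2.52 TPM in Th1 KO and 103 ± 7.28 TPM in Th1 WT (log2 fold change -0.45 ± 0.13, limma adjusted p = 0.0303). That call was lost without any single Th1 KO library (adjusted p between 0.0744 and 0.124), and over 14 fits the adjusted p ran between 0.0159 and 0.147. Gm6637, beside Klrg1, was higher in Th1 KO at 5.38 ± 2.48 TPM, against 1.79 ± 0.229 TPM in Th1 WT (log2 fold change 1.13 ± 0.26, limma adjusted p = 0.0106), and reached an adjusted p of 0.0502, the highest of 14 fits (lowest 0.00935), with no filter on low values. Gm4482, a pseudogene inside the span of Slc2a3 on the same strand, had 9.06 ± 1.11 TPM in Th17 KO and 13.0 ± 0.828 TPM in Th17 WT, and 8.39 ± 1.02 TPM in Th1 KO and 10.2 ± 0.907 TPM in Th1 WT. Neither of its differences passed the limma test (adjusted p = 0.253 in Th17 and 0.266 in Th1 cells). In Th17 WT replicates 1, 2 and 3 it had 13.0, 13.8 and 12.2 TPM, where Slc2a3 had 379, 109 and 44.6 TPM. Whether part of the Gm4482 reads comes from Slc2a3 RNA was not tested. Gm8460 and Gm5883 passed in neither lineage.

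**Figure D3:**
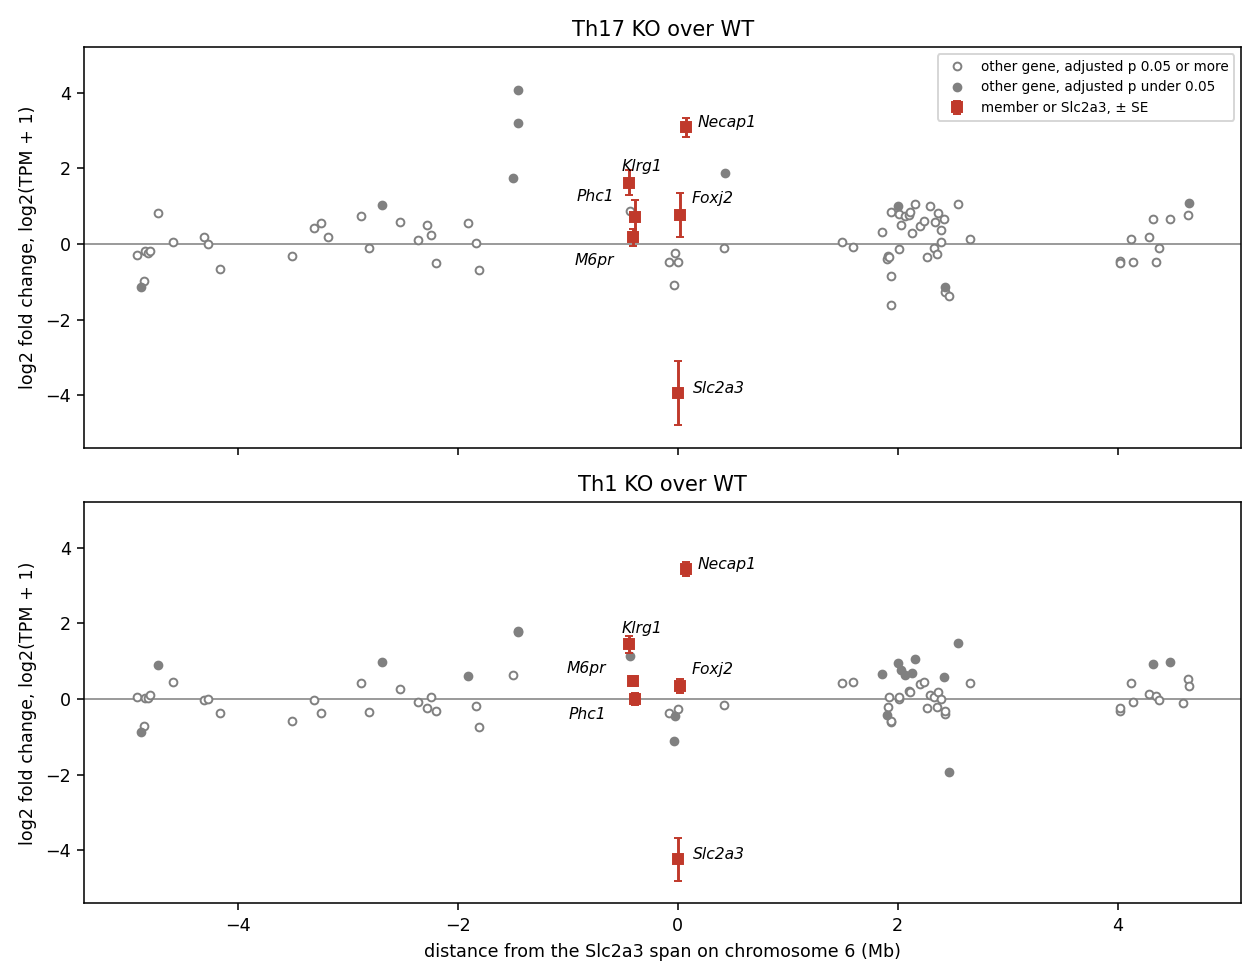
Log2 fold change of KO over WT, on log2(TPM + 1), against distance from the Slc2a3 span on chromosome 6 in Mb, for tested genes within 5 Mb in Th17 cells (top) and Th1 cells (bottom). Squares with ± SE are the tested neighbours and Slc2a3, filled circles are other genes with an adjusted p under 0.05 and open circles the rest. Necap1 stands at 3.09 in Th17 and 3.44 in Th1 cells, while Foxj2, between it and Slc2a3, stands at 0.78 and 0.35.

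Th17 and Th1 cells were compared within each genotype, a contrast that the choice of the genes did not use. None of the 5 tested neighbours passed limma's test in WT cells (0 of 5, with 0 of 5 at an unadjusted p under 0.05 and 0 of 5 by limma-voom), beside 3.63% of all tested genes. In KO cells none passed either (0 of 5, with 1 of 5 at an unadjusted p under 0.05, Phc1, and 0 of 5 by limma-voom), beside 5.91% of all tested genes. For Necap1 the log2 difference, Th17 over Th1, was -0.13 ± 0.22 in KO (95% interval -0.60 to 0.34, adjusted p = 0.784) and 0.22 ± 0.22 in WT (-0.25 to 0.69, adjusted p = 0.686). For M6pr it was 0.09 ± 0.18 in KO (-0.31 to 0.48, adjusted p = 0.835) and 0.39 ± 0.18 in WT (-0.01 to 0.78, adjusted p = 0.355). For Phc1 it was 0.89 ± 0.35 in KO (0.12 to 1.66, adjusted p = 0.187), and 0.39 ± 0.19 without Th17 KO replicate 2. In WT it was 0.17 ± 0.35 (adjusted p = 0.854). Klrg1 was at -0.40 ± 0.31 in KO (adjusted p = 0.485) and -0.57 ± 0.31 in WT (adjusted p = 0.437), and Foxj2 at 0.69 ± 0.46 in KO (adjusted p = 0.42) and 0.27 ± 0.46 in WT (adjusted p = 0.823). The median over all tested genes was 0.13 in KO and 0.14 in WT, and median-of-ratios scaling moved it by -0.16 and -0.14, so differences of this size depend on the scaling.

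The KO effect in Th17 cells minus that in Th1 cells was -0.35 ± 0.31 for Necap1, -0.30 ± 0.26 for M6pr, 0.17 ± 0.43 for Klrg1, 0.72 ± 0.50 for Phc1 and 0.42 ± 0.65 for Foxj2 on the log2 scale. All 5 lay within 2 SE of 0. By limma's test 0 of 5 had an adjusted p under 0.05, beside 0.638% of all tested genes. The difference is built from the genotype contrasts, so nothing is read from this count.

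Genes that work with each neighbour were counted from lists chosen by function, with earlier results known. Of the clathrin and AP-2 list, which holds Necap2 and the AP-2 and clathrin subunits, 14 of 23 tested genes rose in Th1 KO and none fell, with a median log2 fold change of 0.55, against 0.03 over all tested genes, of which 17.6% rose and 13.7% fell. Among them, Necap2 rose to 108 ± 5.54 TPM in Th1 KO, against 40.8 ± 7.61 TPM in Th1 WT (log2 fold change 1.40 ± 0.17, limma adjusted p = 0.000532). Sh3gl1, an endophilin that bends the vesicle neck, rose to 152 ± 20.4 TPM in Th1 KO, against 46.4 ± 5.03 TPM in Th1 WT (1.69 ± 0.16, adjusted p = 0.000192). Fcho2, which starts the coated pit, rose to 11.3 ± 1.499 TPM in Th1 KO, against 2.51 ± 0.935 TPM in Th1 WT (1.83 ± 0.22, adjusted p = 0.000566). Leaving out any single Th1 KO library left 4 genes past the threshold and fitting all 12 libraries together left 5; over all genes the count was 2594 without Th1 KO replicate 1, in place of 4220. The alpha subunit genes parted: Ap2a1 rose in Th1 KO (0.78 ± 0.21, adjusted p = 0.0207), while Ap2a2 was at -0.21 ± 0.22 (adjusted p = 0.489). Of the 14 genes that rose in Th1 KO, Hip1, at 0.302 ± 0.0596 TPM in Th1 WT, entered the test only through KO. Aak1, at 0.829 ± 0.189 TPM in Th1 WT, averaged under the 1 TPM of the filter as well.

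In Th17 KO, 2 of 22 genes of the clathrin and AP-2 list rose and none fell, with a median log2 fold change of 0.87, against 0.04 over all tested genes, of which 4.6% rose and 2.7% fell. These were Necap2, at 138 ± 4.79 TPM in Th17 KO and 68.9 ± 11.1 TPM in Th17 WT (1.01 ± 0.19, limma adjusted p = 0.0263), and Sh3gl1, at 190 ± 62.1 TPM in Th17 KO and 72.5 ± 17.9 TPM in Th17 WT (1.36 ± 0.29, adjusted p = 0.0358). Both calls were lost without Th17 KO replicate 1 or 3 or any single Th17 WT library, that of Necap2 also by limma-voom (adjusted p = 0.0556; 0.00217 to 0.146 over 14 fits) and that of Sh3gl1 with no filter on low values (adjusted p = 0.0737; 0.00237 to 0.159 over 14 fits). With Th17 KO replicate 2 left out, 7 of 21 rose, with the replicate number as a block 5 genes passed, and with all 12 libraries fitted together 8 rose and 1 fell. Summed over the 24 listed genes, the level was 1696 to 2506 TPM in Th17 KO and 971 to 1192 TPM in Th17 WT, and 1311 to 1404 TPM in Th1 KO and 806 to 965 TPM in Th1 WT.

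**Figure D4:**
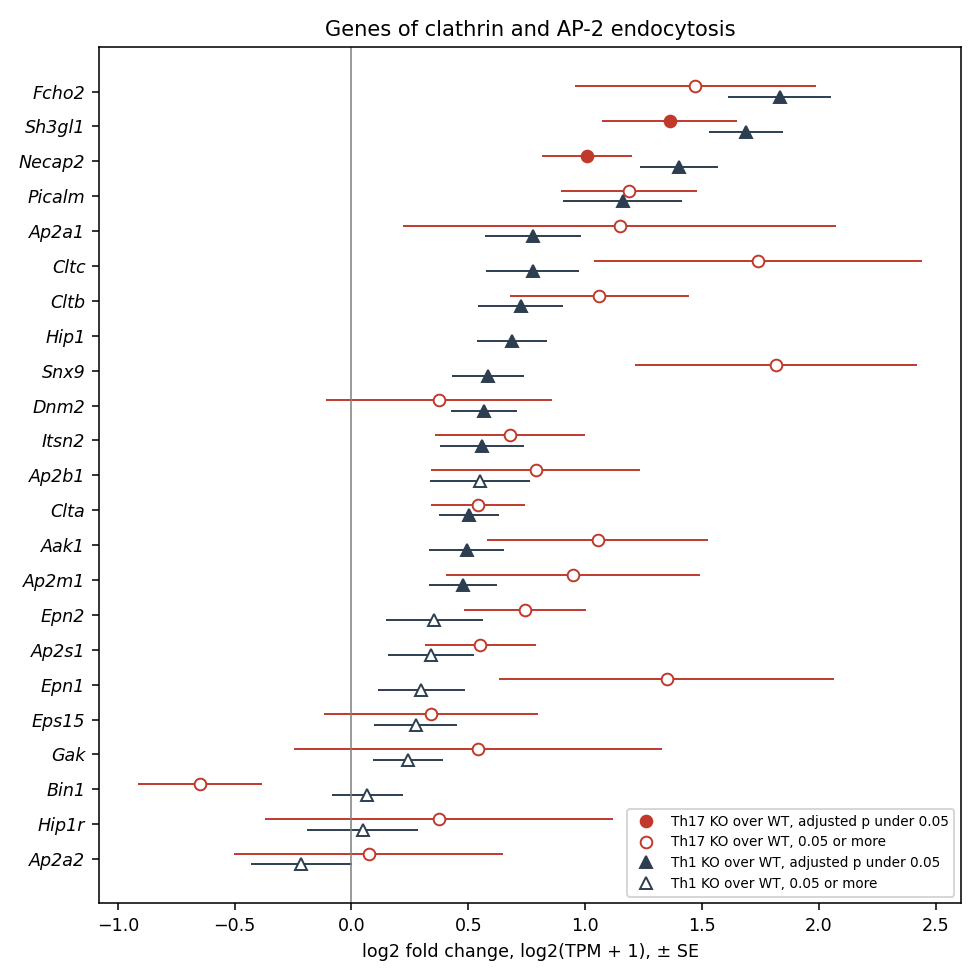
Log2 fold change of KO over WT, on log2(TPM + 1), with ± SE for each tested gene of the clathrin and AP-2 list, in Th17 cells (circles) and Th1 cells (triangles). Filled symbols have an adjusted p under 0.05: 2 of 22 in Th17 and 14 of 23 in Th1 cells, all to the right of 0. Hip1 entered the Th1 test only through the KO libraries.

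Of the genes that load and retrieve mannose 6-phosphate receptors, 4 of 15 rose in Th1 KO and none fell (median log2 fold change 0.40), beside 17.6% of all tested genes that rose. Gnptab, which makes the mannose 6-phosphate tag, rose to 22.4 ± 2.08 TPM in Th1 KO, against 8.84 ± 1.16 TPM in Th1 WT (1.25 ± 0.16, limma adjusted p = 0.00074). Vps26a of the retromer rose to 36.9 ± 5.90 TPM in Th1 KO, against 16.4 ± 3.51 TPM in Th1 WT (1.13 ± 0.20, adjusted p = 0.00314). Without Th1 KO replicate 3 the count was 2, and with all 12 libraries fitted together it was 1, where Gnptab no longer passed (adjusted p = 0.102; 0.000451 to 0.102 over 14 fits). In Th17 KO the median was 0.40 and none of the 15 passed limma's test; 1 did with the block, 1 without Th17 KO replicate 2, and 2 (1 higher, 1 lower) with all 12 libraries fitted together. Of the lysosomal proteins, among them the cargo of these receptors, 1 of 20 rose and 3 fell in Th17 KO (median 0.13), and 7 of 19 rose and 4 fell in Th1 KO (median 0.21). Over all tested genes 4.6% rose and 2.7% fell in Th17 KO, and 17.6% rose and 13.7% fell in Th1 KO. Cathepsin D (Ctsd) rose to 786 ± 26.2 TPM in Th1 KO, against 257 ± 22.1 TPM in Th1 WT (1.61 ± 0.13, limma adjusted p = 9.47e-05). Cathepsin Z (Ctsz), which rose in both lineages, had 748 ± 139 TPM in Th17 KO and 320 ± 10.04 TPM in Th17 WT (1.20 ± 0.20, adjusted p = 0.0172), a call lost without Th17 KO replicate 1 or any single Th17 WT library. It had 579 ± 104 TPM in Th1 KO and 230 ± 13.7 TPM in Th1 WT (1.31 ± 0.16, adjusted p = 0.000623). The lysosomal counts in Th17 cells ranged between 0 and 7 with single libraries left out, and that of Th1 cells was 7 without Th1 KO replicate 2. With all 12 libraries fitted together, 3 rose and 4 fell in Th17 KO, and 4 rose and 3 fell in Th1 KO.

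Of the other Polycomb repressive complex 1 genes, 4 of 17 rose in Th1 KO and none fell (median 0.22), a share near the 17.6% of all tested genes that rose. The count was 2 without Th1 KO replicate 1, 7 by limma-voom and 1 with all 12 libraries fitted together. Cbx2, among the 4, was at 0.433 ± 0.0236 TPM in Th1 WT and entered the test only through KO. Pcgf3 rose to 5.49 ± 0.401 TPM in Th1 KO, against 1.48 ± 0.425 TPM in Th1 WT (1.40 ± 0.18, limma adjusted p = 0.00074). In Th17 KO the median was 0.50 and none of the 17 passed; 1 did with the block, 2 without Th17 KO replicate 2 and 3 with all 12 libraries fitted together. Of 11 tested forkhead genes, Foxm1, a driver of mitotic genes, rose in Th1 KO (1.17 ± 0.31, adjusted p = 0.022), a call lost without Th1 KO replicate 1 or 3, with no filter on low values and with all 12 libraries fitted together (adjusted p between 0.00787 and 0.293 over 14 fits). None passed in Th17 cells, where 1 did with all 12 libraries. No deaminase or cofactor listed with Apobec1 passed in either lineage (2 tested in Th17 and 3 in Th1 cells), nor did Acy1, the only tested gene of the N-acetylaspartate list set beside Rimklb (adjusted p = 0.235 in Th17 and 0.762 in Th1 cells).

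Of the effector T and NK cell surface genes listed with Klrg1, 9 of 10 rose in Th1 KO and none fell (median 1.57), beside 17.6% of all tested genes that rose. Without any single Th1 KO library 6 were left. In Th17 KO, 4 of 9 rose and 1 fell (median 1.52), beside 4.6% of all tested genes that rose and 2.7% that fell. Klrk1, which encodes the activating receptor NKG2D, had 11.6 ± 1.63 TPM in Th17 KO and 1.96 ± 0.0766 TPM in Th17 WT (2.08 ± 0.24, limma adjusted p = 0.00586), and 64.1 ± 5.91 TPM in Th1 KO and 13.9 ± 1.30 TPM in Th1 WT (2.13 ± 0.15, adjusted p = 6.17e-05). The adjusted p in Th17 cells was 0.0501 and 0.0514 without Th17 WT replicates 2 and 3, the highest of 14 fits (lowest 1.53e-05), and the count of genes passing fell to 1 without either of these and to 2 without Th17 KO replicate 1 or 3. Klrc1, which encodes NKG2A, rose to 106 ± 25.7 TPM in Th1 KO, against 14.9 ± 4.79 TPM in Th1 WT (2.77 ± 0.26, adjusted p = 0.000215).

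Markers of other cell types, some of which express Klrg1 or Clec4n, differed between the genotypes as well. Beside the counts below, 4.6% of all tested genes rose and 2.7% fell in Th17 KO, and 17.6% rose and 13.7% fell in Th1 KO. All 4 of 4 gamma delta T cell receptor genes were higher in KO in both lineages in every setting tried, and their sum was 165 to 255 TPM in Th17 KO and 17.3 to 20.1 TPM in Th17 WT, and 171 to 268 TPM in Th1 KO and 13.7 to 33.3 TPM in Th1 WT. The 6 CD8 and NK markers summed to 55.3 to 67.5 TPM in Th17 KO and 39.7 to 50.9 TPM in Th17 WT, and 60.9 to 95.6 TPM in Th1 KO and 39.0 to 43.5 TPM in Th1 WT. These sums pool genes that moved in opposite directions. Klrd1 averaged 35.4 TPM in Th17 KO and 20.2 TPM in Th17 WT, and 58.0 TPM in Th1 KO and 16.5 TPM in Th1 WT. Cd8b1 averaged 18.9 TPM in Th17 KO and 23.4 TPM in Th17 WT, and 12.1 TPM in Th1 KO and 21.3 TPM in Th1 WT. Of 4 tested CD8 and NK markers, 0 passed in Th17 cells, and 3, all higher, did with all 12 libraries fitted together. With the block, by limma-voom, with a pseudocount of 0.5, with no filter, with median-of-ratios scaling or without Th17 KO replicate 2, 1 passed. In Th1 KO 2 rose (Klrd1 and Eomes) and 2 fell (Cd8a and Cd8b1). Eomes had at most 0.192 TPM in Th17 WT and 0.592 TPM in Th1 WT, so it entered the tests only through KO. Ncr1, a defining NK receptor, was low but higher in KO, and was at 0 in 3 of the WT libraries. It had 0.936 to 1.37 TPM in Th17 KO and at most 0.0599 TPM in Th17 WT. In Th1 KO it had 0.933 to 1.77 TPM, against at most 0.0671 TPM in Th1 WT. Klrb1c, lower still, had 0.118 to 0.338 TPM in Th17 KO and at most 0.0679 TPM in Th17 WT. In Th1 KO it had 0.0883 to 0.562 TPM, against at most 0.0659 TPM in Th1 WT. The 6 myeloid markers summed to 42.7 to 62.4 TPM in Th17 KO and 12.1 to 13.7 TPM in Th17 WT, and 24.4 to 45.2 TPM in Th1 KO and 10.5 to 13.8 TPM in Th1 WT. Of these, 3 of 4 tested were higher in Th17 KO (Tyrobp, Fcer1g and Lyz2) and 2 of 3 in Th1 KO (Tyrobp and Fcer1g), and Csf1r was at 0 in Th1 WT. Tyrobp averaged 0.918 TPM in Th17 WT, under the 1 TPM of the filter. No Th17 call was left without Th17 WT replicate 2 or 3, and 1 was left without Th17 KO replicate 1. The 4 mast cell and basophil markers summed to 12.5 to 85.2 TPM in Th17 KO and 1.06 to 2.25 TPM in Th17 WT, and 10.2 to 55.2 TPM in Th1 KO and 0.823 to 1.51 TPM in Th1 WT, with Gata2 at 0 in Th17 WT. The 3 tested, Cpa3, Mcpt8 and Fcer1a, had WT means between 0.183 and 0.810 TPM, under the 1 TPM of the filter. They entered the test mainly through the KO libraries, so no count of calls is given. The part of these cells in the Klrg1 and Clec4n values was not tested.

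Of 13070 genes tested in both lineages, those most like Necap1 over the 12 libraries by Pearson's r on log2(TPM + 1) were Rab12 (0.997), Mospd2 (0.993), Fosl1 (0.991), Atp6v0e2 (0.990) and Vamp3 (0.990). These values are a description of 12 libraries that fall into 2 clusters by genotype, with each genotype shared by 6 of them. Rab12 had 52.1, 52.7 and 41.8 TPM in Th17 KO, against 9.39, 9.21 and 9.31 TPM in Th17 WT. It had 54.5, 47.4 and 59.8 TPM in Th1 KO, against 9.40, 6.51 and 7.51 TPM in Th1 WT. Like Necap1, it separated the genotypes with no overlap and ordered the 3 Th1 KO libraries in the same way. Atp6v0e2, on the same chromosome, averaged 12.5 ± 3.496 TPM in Th17 KO and 0.173 ± 0.150 TPM in Th17 WT, and 10.01 ± 0.812 TPM in Th1 KO and 0.247 ± 0.0887 TPM in Th1 WT. No WT library had more than 0.341 TPM of Atp6v0e2. It thus passed the filter only through KO, where Necap1 is high, and nothing is read from its r. With the mean of each of the 4 groups removed, the genes most like Necap1 were Srp68 (0.973), Tspyl1 (0.969), Gars (0.968), Tmtc4 (0.965) and Cog4 (0.961), none of them among the first 5. Gars stood at 312 ± 62.6 TPM in Th17 KO and 491 ± 79.1 TPM in Th17 WT, below WT where Necap1 was above it.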

How the data were processed

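The deposited tables, 1 for each lineage, list 45703 genes. Their values are TPM as the authors computed them, written with a decimal comma, beside RefSeq coordinates and exon lengths. The submitters' processing notes name STAR 2.7.2b, featureCounts 1.6.4 and the build GRCm38.p6, without their settings. Per the labels' protocols, SMART-Seq v4 and Nextera XT libraries were used, which do not mark strand. TPM times exon length gave whole reads within 0.02 reads for 100% of values, 16596283 to 28496606 per library. For 1 kb of exon, 3 reads equal 0.19 to 0.437 TPM; this covers counting error only.

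A gene entered a fit with 3 or more of its libraries at or above 1 TPM. Tests used limma 3.58.1 under R 4.3.3 on log2(TPM + 1) (mean-variance trend, two-sided, Benjamini-Hochberg over all tested genes, threshold 0.05). Genotypes were compared on the 6 libraries of a lineage, while lineages and the difference of effects came from 1 fit of all 12 libraries with a mean for each of the 4 groups. Nothing in the labels ties replicates to separate mice or cultures, so p-values measure the spread between libraries, which may be technical. The steps were run on simulated reads with known changes. These had the same spread setting for every gene, no library that stood apart and no pairing. They thus do not check the fits for those features of the data. The 7 genes and all lists were chosen with earlier results of these data known. Named were the 7 genes, tested genes within 1 Mb, cell type markers, up to 3 genes of a list by adjusted p and the 5 genes most like Necap1. Ap2a1, Ap2a2, Hip1, Aak1, Clec4d, Clec4e and the genes of the closing section were named after their values were seen. 5 of the 7 genes matched the RefSeq promoter table.

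Replicate numbers recur in all groups. Deviations of same-numbered libraries correlated at 0.137, 0.409 and 0.23 between Th17 KO and Th17 WT, and at 0.719, 0.256 and 0.532 between Th17 WT and Th1 WT. They correlated at 0.157, 0.212 and -0.0696 between Th1 KO and Th1 WT, and at 0.218, -0.0431 and -0.192 between Th17 KO and Th1 KO. The numbers may thus pair libraries in some comparisons and not in others. The main fits, with their SE and p-values, ignore any pairing, and the replicate block was fitted only as an alternative. Alternatives were other pseudocounts (0.5 and 5), no filter, median-of-ratios scaling, limma-voom on the recovered reads, the block, all 12 libraries, other windows and each library left out.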

Additional observations from a re-analysis of the deposited data

How the results depend on the processing

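Th17 KO against WT called 1009 genes, and 2933 when all 12 libraries were fitted together; Th1 KO against WT called 4220, and 2568 in that fit. Limma-voom on the recovered reads called 1311 and 4512. With single libraries left out the counts were 109 to 2158 in Th17 cells, 2594 to 4587 in Th1 cells, 309 to 1582 for Th17 against Th1 in WT (529 with all libraries), 449 to 1219 for Th17 against Th1 in KO (861) and 21 to 171 for the difference of the KO effect (93); the highest counts, but for Th1 cells, are those without Th17 KO replicate 2. In Th17 cells each of the 6 libraries moved the count by over 1.5 times, down without any but Th17 KO replicate 2, and in Th1 cells each KO library did. Of 11 genes within 1 Mb tested in Th1 cells, 6 were called (4 to 6 with single libraries left out), of which 3 are among the 7 neighbours. Within 5 Mb, 24 of 82 were called, beside 31.3% of all tested genes. For Th17 cells no count is given. There Klrg1 and Clec4n entered only through KO and failed the filter without any single KO library. With the replicate block the counts were 1399, 4479, 580 and 960 in the order of the first 4 comparisons, and Necap1 kept 3.09 ± 0.24 in Th17 and 3.44 ± 0.17 in Th1 cells; in Th1 cells, whose numbers did not pair, Polycomb genes called were 6. Directions that reversed among values outside the 7 genes' genotype contrasts were of differences that passed no test: Gm5883 in Th17 KO (0.16 without Th17 KO replicate 2, otherwise down to -0.27), Phc1 between lineages in WT (-0.0026 without Th17 WT replicate 2, otherwise up to 0.27), and, between lineages in KO, M6pr (-0.11 with median-of-ratios scaling, -0.031 by limma-voom, -0.12 without Th17 KO replicate 2), Foxj2 (-0.017 without Th17 KO replicate 2, otherwise up to 1.08) and Necap1 (0.033 without Th17 KO replicate 3, otherwise down to -0.28). M6pr in Th17 KO against WT turned to -0.03 without Th17 KO replicate 2, Phc1 in Th1 cells, at 0.00, fell on either side of 0, and the difference of the KO effect changed sign for Foxj2 (-0.29 without Th17 KO replicate 2) and Klrg1 (-0.16 without Th17 KO replicate 3). The cause was not tested. Over the settings, the Necap1 log2 fold change lay between 2.73 and 3.25 in Th17 and between 3.01 and 3.58 in Th1 cells. Rimklb and Apobec1 were too shallow for any fold.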

Other observations

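Within 5 Mb of Slc2a3, Usp18, an interferon-induced protease that removes ISG15, had a higher log2 fold change than Necap1 in Th17 cells and a lower one in Th1 cells, at 4.08 ± 0.48 and 1.79 ± 0.14, from 1.46 Mb away. Gm44148, annotated next to it, stood at 3.21 ± 0.32 and 1.77 ± 0.16. Both genes were singled out after their values were seen.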
